A study of Homo sapiens with 18 samples.

Results

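The genes described here encode the aminoacyl-tRNA synthetases, the enzymes that join each amino acid to its own tRNA. They were chosen by name: 35 gene symbols were listed, 19 for enzymes of the cytosol and 16 for enzymes of the mitochondria, and a probe set counted as a member if the probe annotation gave it a listed symbol or the older form without the final 1. Of the 35, 31 had a probe set with their name, 16 cytosolic and 15 mitochondrial, each with 1 probe set among the 21448 tested. MARS1, QARS1, VARS1 and TARS2 had no probe set carrying their name in the annotation used here and were not analysed. The samples were SKOV-3 cells, an established human ovarian carcinoma line, transiently transfected with the empty vector (SKOV-3-EV), with PEA-15AA, the form of PEA-15 closed to phosphorylation (SKOV-3-AA), or with PEA-15DD, the form that mimics it (SKOV-3-DD). For short, these are called EV, AA and DD cells. PEA-15 is a small protein that holds the kinases ERK1/2 in the cytoplasm. The cells of each transfection were left in medium (untreated) or exposed to 15 µM cisplatin, a platinum drug that crosslinks DNA, for 24 h, beginning 24 h after transfection. The titles of the untreated EV arrays carry the words Medium-cis while their other labels give medium alone and a dose of 0, and they were grouped by the latter, so every EV response rests on that reading. These 6 groups held 3 Clariom S arrays each, 18 in all. All groups share the cell line and a transfection, so that no group shows cells without plasmid, and the plasmids entered the cells transiently, so the share of cells that carried one is not known from the arrays.

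Human cells keep 2 sets of these enzymes, both encoded in the nucleus: one set charges tRNAs for the cytosolic ribosomes, and the other, whose gene names mostly end in 2, is imported into mitochondria and charges the tRNAs made there, which serve the few proteins encoded by mitochondrial DNA. GARS1 and KARS1 give rise to enzymes for both compartments and were counted with the cytosolic set. By the fold of their active site the enzymes fall into class I and class II. Several cytosolic enzymes are bound together in the multisynthetase complex on the scaffold proteins AIMP1, AIMP2 and EEF1E1. When amino acids run short, uncharged tRNA activates the kinase GCN2 (EIF2AK4), and the transcription factor ATF4, made in response, is known to raise many cytosolic synthetase genes through elements that resemble TGATGNAA.

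The letters TGATGNAA, or TTNCATCA as read on the other strand, were searched on both strands of RefSeq promoter windows (GRCh38.p14) of 300 bases, which begin 250 bases before each annotated start site. Windows were at hand for 30 of the 35 listed genes, 16 cytosolic and 14 mitochondrial. VARS1, VARS2, YARS1, LARS1 and AARS2 had none. The letters stood in the windows of 7 cytosolic genes and of 1 mitochondrial gene, against 4.46% of 27305 genes with a window (3.62% of 35116 windows, since a gene can have several). A match describes only the letters in the window and is no measure of binding. The 7 matches in genes with a probe set are shown because these genes went both ways after cisplatin, as described further on. Each is written 5′ to 3′ on the strand of the gene, with the match in capitals.
AARS1: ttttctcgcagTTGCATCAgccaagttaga
CARS1: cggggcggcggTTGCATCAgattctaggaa
GARS1: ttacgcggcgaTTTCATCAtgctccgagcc
IARS1: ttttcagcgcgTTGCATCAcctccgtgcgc
NARS1: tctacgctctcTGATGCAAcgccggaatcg
TARS1: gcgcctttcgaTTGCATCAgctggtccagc
YARS2: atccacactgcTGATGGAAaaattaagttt

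These stretches lie at chr16:70289675-70289704 (minus strand) for AARS1, chr11:3057407-3057436 (minus) for CARS1, chr7:30594834-30594863 (plus) for GARS1, chr9:92293692-92293721 (minus) for IARS1, chr18:57621804-57621833 (minus) for NARS1, chr5:33440956-33440985 (plus) for TARS1 and chr12:32756076-32756105 (minus) for YARS2. In CARS1, IARS1 and GARS1 the match began 2, 13 and 33 bases before an annotated start site, in TARS1 and NARS1 it began 2 and 14 bases after one, and in AARS1 and YARS2 it lay farther upstream, 187 and 197 bases before. The only other match, in MARS1, belongs to a gene without a named probe set. For comparison, CACGTG, the E-box that MYC and related factors bind, stood in the windows of CARS2, EARS2, IARS1 and MARS2, against 8.77% of genes with a window (7.26% of windows).

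HARS1 and HARS2, the cytosolic and the mitochondrial histidine enzyme, are neighbours that are read in opposite directions from start sites with 84 bases between them. That stretch, chr5:140691370-140691455 on the plus strand, is shown because both genes share it, with the bases between the start sites in capitals and the first base of HARS1 (left, read to the left) and of HARS2 (right) in lower case.
HARS1 and HARS2: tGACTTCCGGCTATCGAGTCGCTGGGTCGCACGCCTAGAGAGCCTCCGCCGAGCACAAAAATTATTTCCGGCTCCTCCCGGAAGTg

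Values are the log2 signals per probe set that the authors deposited, and a difference of 1 on this scale is 2-fold. Comparisons are differences between group means from limma, a linear model fitted over all probe sets and all 18 arrays, with Benjamini-Hochberg adjustment over the 21448 probe sets, and "rose" and "fell" are kept for an adjusted p under 0.05. Whether arrays of 1 group stem from different cultures is not stated, so the p-values speak only of the spread from array to array, and the number of arrays limits the precision. Untreated arrays had medians of 6.53 to 6.61, and treated arrays had medians of 6.33 to 6.44. As a mark of background, the 95th percentile of 612 negative control features was 6.30 to 6.95 in the untreated arrays and 6.80 to 7.62 in the treated ones. All 16 cytosolic members and 5 mitochondrial members exceeded it in all 18 arrays, while 10 mitochondrial members had at least 1 array below it, and the sizes of their changes are therefore uncertain. Over all probe sets, the arrays most distant from the mean of their group were treated DD replicates 2 and 3 (root mean square 0.305 and 0.311, against 0.144 to 0.251 in the other arrays). The 6 measured markers of the line (KRT7, KRT8, KRT18, KRT19, EPCAM and PAX8) had a mean signal of 12.48 to 12.83 untreated and of 11.76 to 12.11 treated, and none was below this mark in all arrays, and after cisplatin 2 of them rose (KRT7 by 0.96 and KRT8 by 0.24), 2 fell (PAX8 with -3.45 and KRT19 with -1.60) and 2 passed in neither direction. Of 7 measured markers of other cells, 5 lay below the background mark in all arrays, and 5 rose, the most being 0.52 in ACTA2. Their mean without PTPRC was 4.79 to 5.25 in untreated and 5.12 to 5.62 in treated arrays. The leukocyte marker PTPRC had signals of 11.71 to 12.34 untreated and of 9.52 to 10.10 treated. The part of these markers in the results was not tested.

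After cisplatin most synthetase genes fell. Averaged over the 3 transfections, 19 of the 31 members fell, 7 rose and 5 passed the test in neither direction, while over all probe sets 28.7% fell and 36.5% rose. The median change of the members was -0.56, against 0.10 for all probe sets. These overall figures depend on signal level. With only probe sets whose mean signal was at or above the median, 4937 fell and 3991 rose, with a median change of -0.10. Under that filter, which also leaves out members of low mean signal, 11 cytosolic and 7 mitochondrial members fell, and 3 and 2 rose. In 15 members all 9 treated arrays lay below all 9 untreated arrays, and in 4 members above, a separation that 18% and 13.3% of all probe sets showed in these directions. A change of 2-fold or more at an unadjusted p under 0.05, the thresholds of the study's methods, was met by 8 members downward and 1 upward, against 12.2% and 6.4% of all probe sets. The direction was shared: 30 of 31 members had the same sign in all 3 transfections, against 75.8% of all probe sets. The exception was AARS2, which lay near background. By transfection, 18 members fell and 4 rose in SKOV-3-EV cells (24.3% and 26.2% of all probe sets), 17 fell and 5 rose in SKOV-3-AA cells (23% and 22.3%), and 19 fell and 5 rose in SKOV-3-DD cells (22.7% and 20.1%). These counts depend on normalization. With each array centred on its median, 14, 12 and 14 members fell and 8, 7 and 7 rose. That step also raised the share of rises among averaged calls over all probe sets, from 55.9% to 70.6%. Individual arrays decided the small numbers of rises: in SKOV-3-EV cells 2 members rose without treated replicate 1 or 2 or untreated replicate 1 or 3, in SKOV-3-AA cells 3 without untreated replicate 1, and in SKOV-3-DD cells 3 without untreated replicate 2.

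**Figure D1:**
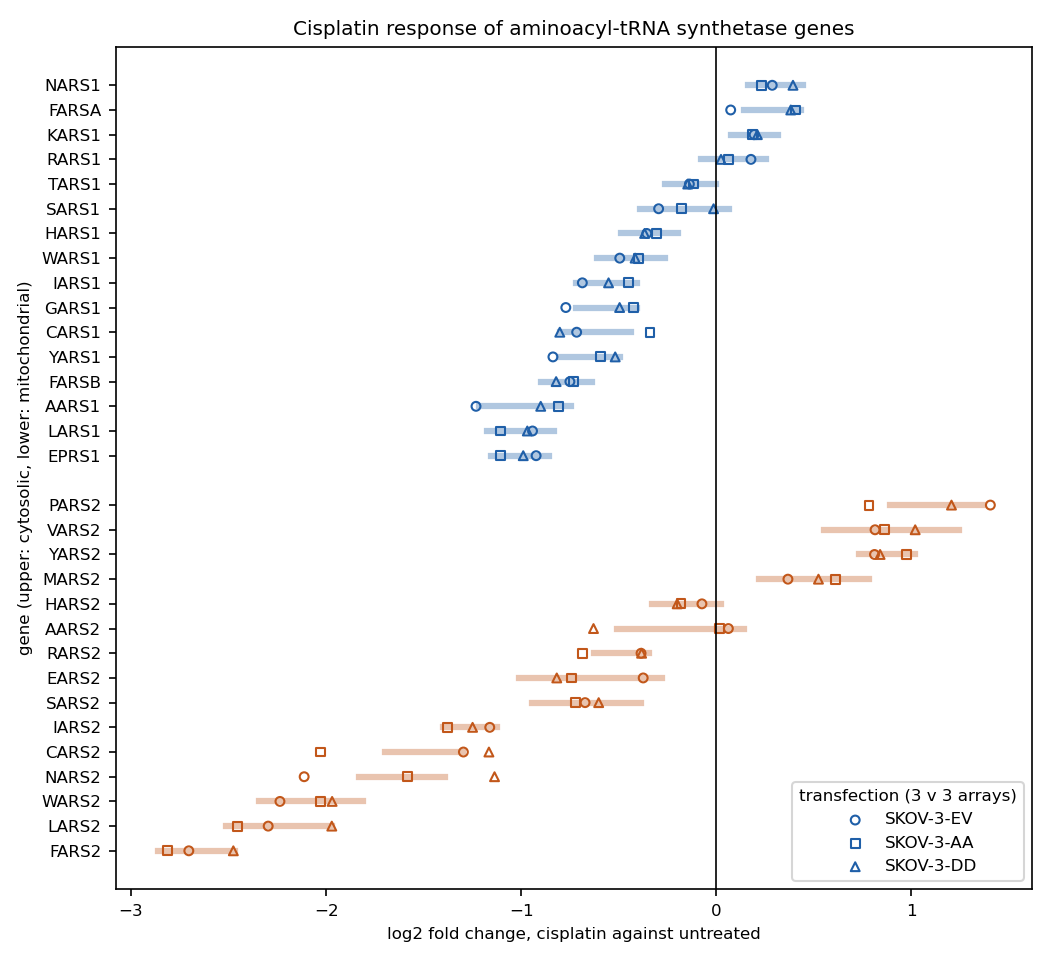
Change of each member after cisplatin on the log2 scale (x axis) for the 16 cytosolic (blue, upper) and 15 mitochondrial genes (orange, lower), with a circle for SKOV-3-EV, a square for SKOV-3-AA and a triangle for SKOV-3-DD cells (3 against 3 arrays each) and a pale bar for the 95% confidence interval of their average. The cytosolic averages run from -1.01 to 0.30 and the mitochondrial averages from -2.66 to 1.13.

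The compartments differed less in the direction of the change than in its spread. Of the 16 cytosolic members, 10 fell and 3 rose, with a median of -0.50, and of the 15 mitochondrial members, 9 fell and 4 rose, with a median of -0.64. The averaged changes of the cytosolic genes had an SD of 0.45 across members and those of the mitochondrial genes an SD of 1.21. Over all probe sets the SD was 0.87, between these values. The mitochondrial SD includes the 10 members with at least 1 array below the background mark. The same was seen array by array, when each gene was set against its mean in untreated SKOV-3-EV cells. In the 9 treated arrays the SD across cytosolic members lay at 0.43 to 0.53 and across mitochondrial members at 1.14 to 1.38, without overlap, while the means of the sets lay at -0.52 to -0.26 and at -0.75 to -0.57. In the 9 untreated arrays the SDs were 0.05 to 0.21 and 0.11 to 0.39. This contrast is a description of the members, without a test. Without GARS1 and KARS1 the cytosolic set counted 9 that fell and 2 that rose of 14, with the same median of -0.50.

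**Figure D2:**
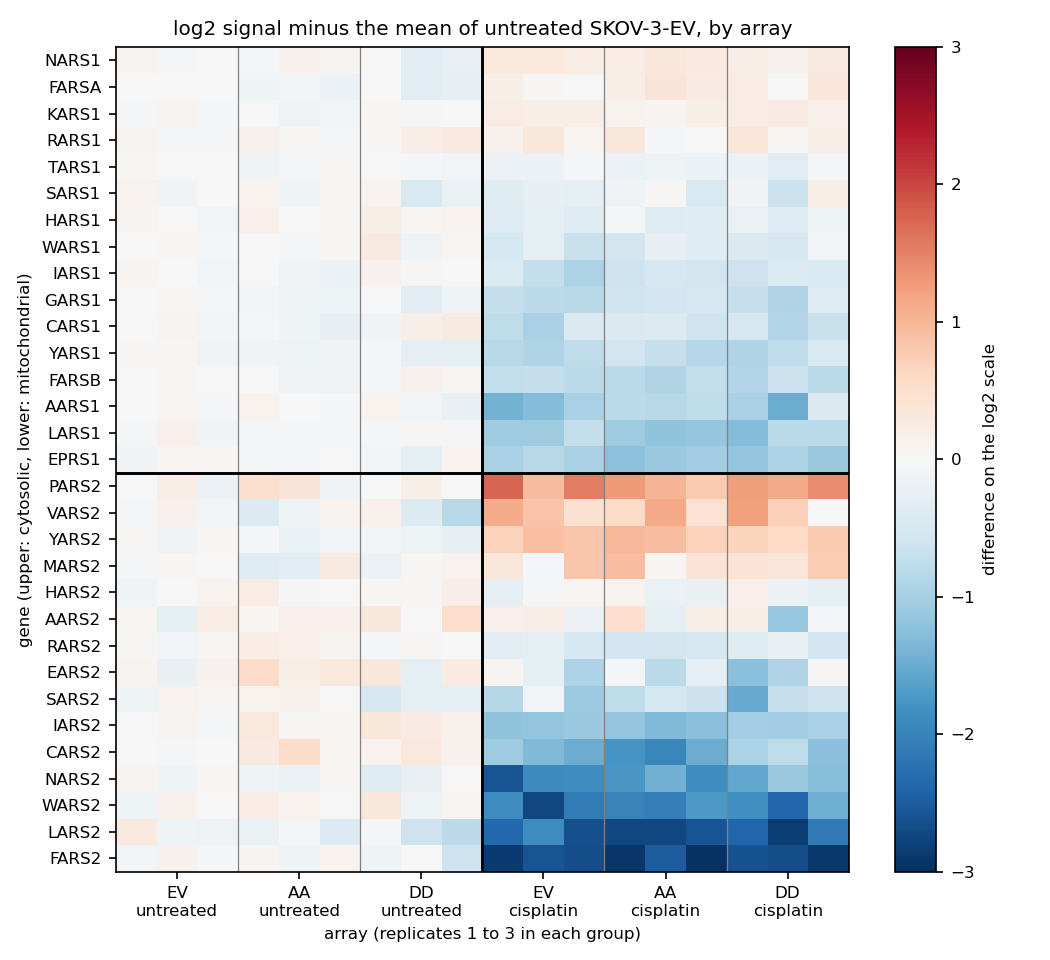
Signal of each member (rows, cytosolic above and mitochondrial below the black line) in each of the 18 arrays (columns, 3 per group), as the difference from its mean in untreated SKOV-3-EV cells on the log2 scale, with blue for lower and red for higher. The 9 treated arrays form the right side, and the darkest rows are FARS2, LARS2, WARS2, NARS2 and CARS2.

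Among the cytosolic genes, EPRS1, LARS1 and AARS1 fell most. EPRS1 encodes a fused enzyme that charges the tRNAs of glutamate and proline, and its lowest, median and highest signals were 11.15, 11.39 and 11.54 in the 9 untreated arrays and 10.21, 10.38 and 10.60 in the 9 treated arrays. Every treated array lay below every untreated array, and the averaged change was -1.01 (SE 0.07, adjusted p = 4.33e-10), with -0.92 for EV, -1.10 for AA and -0.99 for DD cells. LARS1, the leucine enzyme and also a leucine sensor of the mTORC1 pathway, had 11.66, 11.74 and 11.93 untreated and 10.46, 10.72 and 11.06 treated, again without overlap, a change of -1.01 (SE 0.08, adjusted p = 3.83e-09). AARS1, the alanine enzyme, had 12.69, 12.89 and 13.01 untreated and 11.41, 11.94 and 12.48 treated. Its averaged change was -0.98 (SE 0.11, adjusted p = 3.63e-07), and its treated arrays in SKOV-3-DD cells were far apart, at 11.94, 11.41 and 12.48.

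The further cytosolic genes that fell did so by less. FARSB, the beta subunit of the phenylalanine enzyme, changed by -0.77, YARS1 (tyrosine) by -0.65, CARS1 (cysteine) by -0.62, GARS1 (glycine) and IARS1 (isoleucine) each by -0.56, WARS1 (tryptophan) by -0.44 and HARS1 (histidine) by -0.34. In FARSB, YARS1, CARS1, GARS1 and IARS1 the treated and untreated arrays did not overlap, and in WARS1 and HARS1 they did. The fall of HARS1 was no longer called when each array was centred on its median (-0.14, adjusted p = 0.0616). SARS1 (serine, -0.16, adjusted p = 0.201) and TARS1 (threonine, -0.13, adjusted p = 0.0678) passed in neither direction.

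NARS1, FARSA and KARS1 rose, each by a small amount. NARS1, the asparagine enzyme, had lowest, median and highest signals of 13.49, 13.82 and 13.97 untreated and of 13.98, 14.12 and 14.17 treated, without overlap, and rose by 0.30 (SE 0.07, adjusted p = 6.01e-04). KARS1, the lysine enzyme of both compartments, had 14.07, 14.14 and 14.25 untreated and 14.26, 14.34 and 14.42 treated, also without overlap, and rose by 0.20 (SE 0.06, adjusted p = 0.00598). That call was lost after quantile normalization between arrays (0.13, adjusted p = 0.0561). FARSA, the alpha subunit of the phenylalanine enzyme, had 13.94, 14.17 and 14.27 untreated and 14.25, 14.46 and 14.63 treated, and rose by 0.29 (SE 0.07, adjusted p = 0.00144) although the arrays overlapped. It moved by 0.07 in EV, by 0.41 in AA and by 0.38 in DD cells, and the differences between these responses did not pass the test. RARS1, the arginine enzyme, had 11.63, 11.72 and 11.99 untreated and 11.64, 11.82 and 12.06 treated, a change of 0.09 (adjusted p = 0.337) that did not pass. FARSA and FARSB form 1 enzyme together, and their signals parted: within an array, FARSB minus FARSA went from -1.14 to -0.67 untreated down to -2.39 to -1.76 treated, without overlap.

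Of the cytosolic genes whose promoter windows hold TGATGNAA, AARS1, CARS1, GARS1 and IARS1 fell, TARS1 passed in neither direction and NARS1 rose. In the multisynthetase complex, 5 synthetases were measured, of which EPRS1, LARS1 and IARS1 fell, KARS1 rose and RARS1 passed in neither direction. AIMP1, the only 1 of the 3 scaffold proteins with a probe set here, went the other way than most of them: its signals lay at 11.66 to 11.94 untreated and at 12.55 to 13.03 treated, and it rose by 0.94 (SE 0.07, adjusted p = 1.71e-09). By enzyme class, 11 of 15 class I genes fell and 3 rose (median -0.62), and 7 of 15 class II genes fell and 4 rose (median -0.18), with EPRS1, which joins both classes, left out of this count. Over all probe sets 28.7% fell and 36.5% rose.

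The mitochondrial set held the members that fell most. FARS2, the mitochondrial phenylalanine enzyme (chr6:5249934-5771583, GRCh38.p14), had lowest, median and highest signals of 7.97, 8.55 and 8.71 in untreated and of 5.62, 5.92 and 6.09 in treated arrays. The averaged change was -2.66 (SE 0.09, adjusted p = 5.9e-14), with -2.70, -2.81 and -2.48 in EV, AA and DD cells, which placed FARS2 at percentile 1.06 of all probe sets. LARS2, the mitochondrial leucine enzyme (chr3:45388576-45549407), had 6.77, 7.39 and 7.83 untreated and 4.69, 4.97 and 5.65 treated, a change of -2.24 (SE 0.13, adjusted p = 2.8e-11). In both genes all 9 treated arrays lay below the background mark, and in LARS2 so did 2 untreated arrays, so that these changes say that the signal went down to background and not how much RNA was left.

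WARS2, the mitochondrial tryptophan enzyme (chr1:119031216-119140672), had 9.03, 9.26 and 9.52 untreated and 6.47, 7.18 and 7.72 treated, a change of -2.08 (SE 0.13, adjusted p = 7.04e-11). NARS2, the mitochondrial asparagine enzyme (chr11:78435968-78574864), had 8.67, 8.90 and 9.12 untreated and 6.46, 7.29 and 7.91 treated, a change of -1.61 (SE 0.11, adjusted p = 1.86e-10). Their treated arrays stayed clear of the untreated arrays, and 4 of them in WARS2 and 3 in NARS2 lay below the background mark. CARS2, the mitochondrial cysteine enzyme (chr13:110641410-110713522), stayed above that mark in all arrays, with 10.25, 10.37 and 10.83 untreated and 8.33, 8.94 and 9.52 treated. It changed by -1.50 (SE 0.09, adjusted p = 1.2e-10). IARS2, the mitochondrial isoleucine enzyme (chr1:220094132-220148041), was as clearly measured, with 11.63, 11.76 and 12.02 untreated and 10.36, 10.53 and 10.71 treated, and changed by -1.26 (SE 0.06, adjusted p = 6.65e-12). In CARS2 and IARS2 the arrays of both treatments did not overlap.

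RARS2 (arginine) fell by 0.48, without overlap of the arrays, SARS2 (serine) by 0.67 and EARS2 (glutamate) by 0.64, both with overlap. EARS2 lay below the background mark in all 18 arrays, and AARS2 in 8 untreated and 9 treated arrays. AARS2 (alanine, -0.18, adjusted p = 0.308) and HARS2 (histidine, -0.15, adjusted p = 0.122) passed in neither direction. HARS2, which shares its promoter stretch with HARS1, thus had a change of -0.15 beside -0.34 in its neighbour, and the 2 genes kept nearly the same distance within an array, with HARS2 minus HARS1 at -3.71 to -3.30 untreated and at -3.65 to -3.04 treated.

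PARS2, VARS2, YARS2 and MARS2 rose. YARS2, the mitochondrial tyrosine enzyme (chr12:32746544-32755897), was the best measured of them, with lowest, median and highest signals of 11.23, 11.38 and 11.53 untreated and of 12.06, 12.27 and 12.47 treated. No treated array reached down to an untreated one, and YARS2 rose by 0.88 (SE 0.07, adjusted p = 2.33e-09), with 0.81, 0.98 and 0.84 in EV, AA and DD cells. It is also the only mitochondrial gene whose window holds TGATGNAA. PARS2, the mitochondrial proline enzyme (chr1:54756898-54764523), had 6.52, 6.70 and 7.18 untreated, with 5 arrays below the background mark, and 7.49, 7.95 and 8.45 treated. It rose by 1.13 (SE 0.11, adjusted p = 7.67e-08), without overlap, and was the only member past 2-fold upward. VARS2 (valine) had 5.16, 5.93 and 6.15 untreated and 6.01, 6.73 and 7.22 treated, a rise of 0.90 (SE 0.16, adjusted p = 1.1e-04). MARS2 (methionine) had 5.48, 5.84 and 6.12 untreated and 5.81, 6.27 and 6.79 treated, a rise of 0.50 (SE 0.13, adjusted p = 0.00318). MARS2 lay below the background mark in all 18 arrays and VARS2 in 9 untreated and 7 treated arrays, and the medians of the negative controls, which were not tested, were 3.57 to 3.69 in untreated and 3.70 to 3.92 in treated arrays. The part of the background in these rises was not tested.

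**Figure D3:**
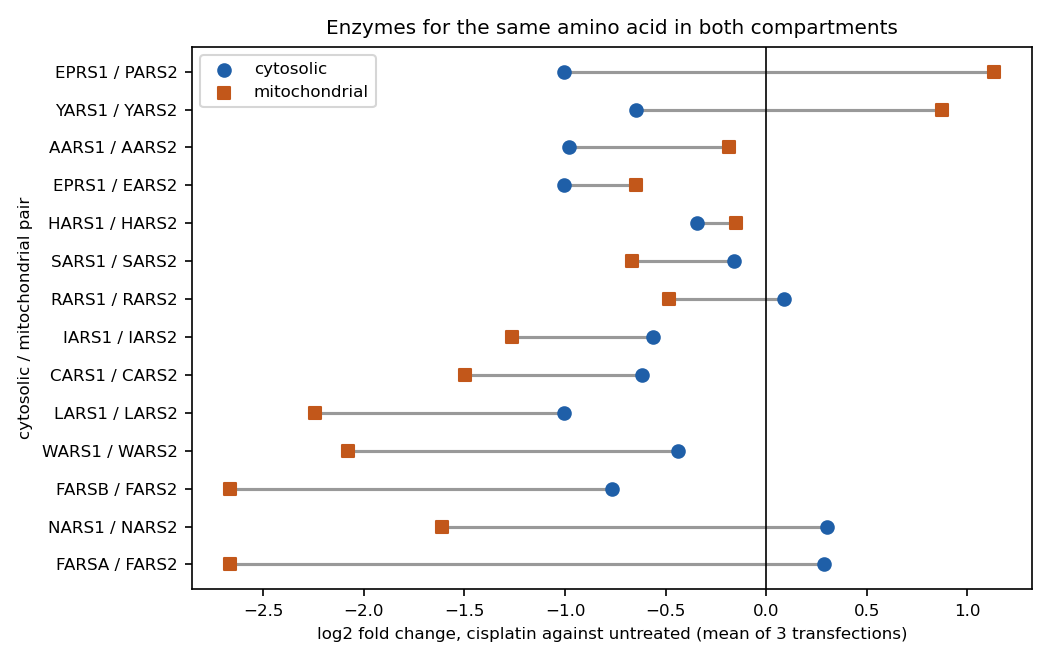
Averaged change after cisplatin on the log2 scale (x axis) of the cytosolic (blue circle) and the mitochondrial enzyme (orange square) for the same amino acid, 14 pairs in rows, each joined by a grey line. In 9 pairs the mitochondrial gene has the lower change and in 5 the higher, with the widest distances in FARSA with FARS2 (-2.95) and EPRS1 with PARS2 (2.14). AARS2, EARS2, FARS2 and LARS2 lay below the background mark in all 9 treated arrays.

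For most amino acids both enzymes were measured, and 14 pairs could be formed, with EPRS1 standing for glutamate and proline and both subunits of the cytosolic phenylalanine enzyme set against FARS2. The difference of both log2 signals within an array shows only whether the 2 genes changed unequally, since probe sets differ in brightness. The mitochondrial gene had the lower change in 9 pairs and the higher change in 5. In 6 of the 9 the within-array difference of treated arrays lay below that of all untreated arrays: NARS2 minus NARS1 moved from -5.18 to -4.57 untreated to -7.70 to -6.07 treated, WARS2 minus WARS1 from -4.75 to -4.42 to -7.06 to -5.98, and LARS2 minus LARS1 from -4.96 to -3.89 to -6.26 to -5.06. The other 3 were FARS2 against FARSA and against FARSB and IARS2 against IARS1 (-0.45 to -0.02 untreated and -1.18 to -0.51 treated). In 2 pairs the mitochondrial gene gained without overlap: YARS2 minus YARS1 moved from -0.80 to -0.47 untreated to 0.61 to 1.18 treated, and PARS2 minus EPRS1 from -4.97 to -4.21 to -2.97 to -2.01. Asparagine and tyrosine thus had opposite patterns, with the cytosolic gene up and the mitochondrial gene down for asparagine, and the reverse for tyrosine. In 6 pairs, those of alanine, arginine, cysteine, glutamate, histidine and serine, the arrays overlapped. FARS2 and EPRS1 each enter 2 pairs. Among single probe sets, 18% lay lower and 13.3% higher after cisplatin without overlap. The share among other pairs of probe sets was not determined, so the counts of pairs have no comparison. AARS2, EARS2, FARS2 and LARS2 lay below the background mark in all 9 treated arrays. AARS2 and EARS2 also lay below it in 8 and 9 untreated arrays, and NARS2, WARS2, SARS2 and PARS2 did in some arrays. The sizes of the shifts in the pairs of these genes are therefore uncertain.

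The members also differed in genomic span, the distance from the start to the end of the gene in RefSeq (GRCh38.p14), which is the length that must be transcribed. Over the 31 members the Spearman correlation between span and averaged change was -0.85, with -0.78 in the cytosolic and -0.91 in the mitochondrial set, and over 17687 genes with a span it was -0.46. These are descriptions across genes, which share the same 18 arrays and are not independent. Mitochondrial members covered the wider range, from MARS2 at 3.03 kb to FARS2 at 522 kb, and cytosolic members ran from FARSA at 11.2 kb to FARSB at 89.2 kb. The 4 members of at least 100 kb, WARS2 (109 kb), NARS2 (139 kb), LARS2 (161 kb) and FARS2, were all mitochondrial, and their changes lay at -2.66 to -1.61 with a median of -2.16, while 3076 genes of that span had a median of -0.79. The 6 members of 60 to 100 kb had a median of -0.89 (-0.40 for 1827 genes), and all 6 lay below that median. Of 11 members of 20 to 60 kb, 9 lay below the median of their 5161 genes, with -0.56 against 0.06. The 10 members under 20 kb had a median of 0.24, against 0.25 for 7623 genes, and included PARS2, YARS2, VARS2 and MARS2 but also SARS2 at -0.67. Within pairs, NARS1 spans 21.2 kb and NARS2 139 kb, and YARS1 spans 42.1 kb and YARS2 9.35 kb. The part of span in the difference between the sets was not tested.

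**Figure D4:**
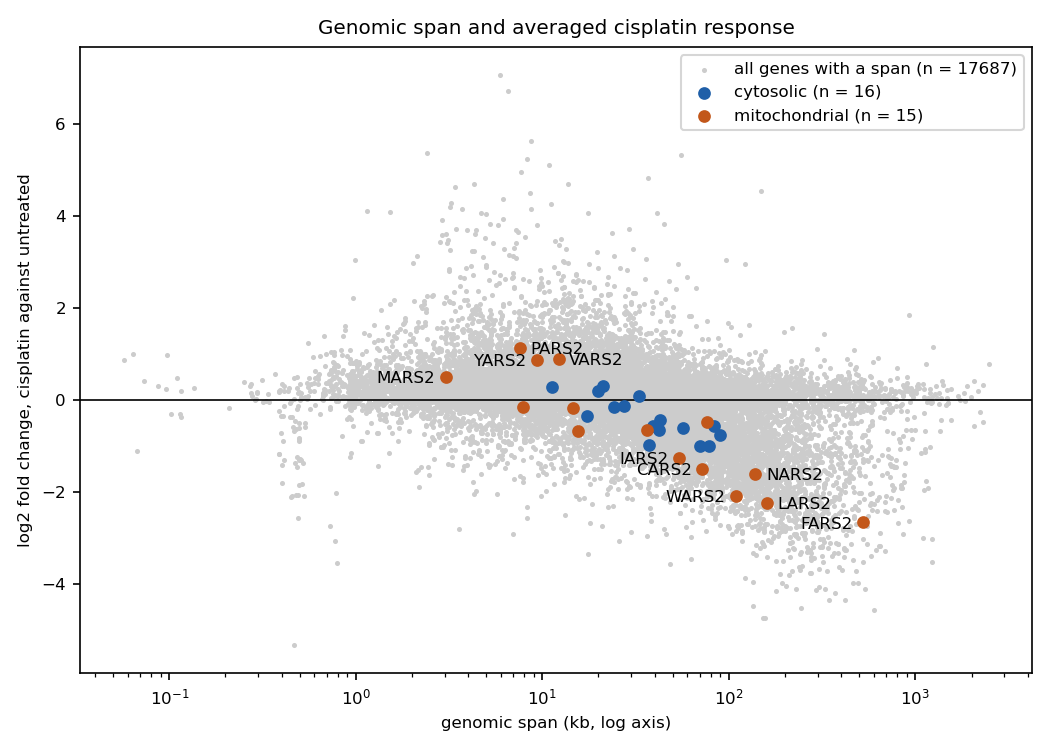
Averaged change after cisplatin on the log2 scale (y axis) against genomic span in kb (x axis, log scale) for 17687 genes (grey), 16 cytosolic members (blue) and 15 mitochondrial members (orange), with names for members below -1.2 or above 0.45. Members of longer span lie lower, with a Spearman correlation of -0.85 over members and -0.46 over all genes.

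Genes that work beside the synthetases were followed as lists, to be read against the 28.7% of all probe sets that fell, the 36.5% that rose and the overall median of 0.10. Of 8 measured mitochondrial initiation, elongation and release factors, 5 fell and 2 rose (median -0.60). MTIF2, the mitochondrial initiation factor that brings the initiator tRNA, fell by 1.09 and the recycling factor gene MRRF by 0.86, while the release factor genes MTRF1L and MTRFR rose by 0.90 and 0.81. Of the cytosolic elongation factors, EEF1D rose by 0.41 and EEF1A1, which carries charged tRNA to the ribosome, lay at 0.04 (adjusted p = 0.575). The 4 kinases that phosphorylate eIF2alpha, and so raise ATF4 translation, all fell. GCN2 (EIF2AK4), which senses uncharged tRNA, had signals of 11.73 to 11.87 untreated and of 9.09 to 9.74 treated, a change of -2.41 (SE 0.09, adjusted p = 5.93e-14). Of 20 genes of the ATF4 amino acid response, 11 rose and 5 fell (median 0.44). ATF4 itself rose by 0.49, the stress transcription factor DDIT3 by 3.69, SESN2, an inhibitor of mTORC1, by 1.78, and ASNS, asparagine synthetase, by 1.72. SLC7A11, the cystine transporter, fell by 1.55, and PSPH, the last enzyme of serine synthesis, by 0.69. Most cytosolic synthetase genes thus fell in arrays in which DDIT3, ASNS and SESN2 rose, and the tie between these changes was not tested.

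Differences between the transfections were small beside the response to cisplatin. In the 6 comparisons of transfections and the 3 differences in response, 0 members passed an adjusted p under 0.05. This held with limma, with its trend and robust options, and with array weights. Over all 21448 probe sets, limma called 0 in each of these comparisons as well. The most called were 3 with the trend and robust options and 154 with array weights. At an unadjusted p under 0.05, untreated cells gave 0 members in AA against EV (3.09% of all probe sets), 1 in DD against EV (5.47%), LARS2, and 0 in AA against DD (3.99%). Under cisplatin there were 3 in AA against EV (12.5%), AARS1, CARS2 and NARS2, 1 in DD against EV (7.79%), NARS2, and 1 in AA against DD (6.98%), CARS2. Differences in response gave 2 members for AA minus EV (6.9%), CARS2 and PARS2, 1 for DD minus EV (7.59%), NARS2, and 2 for AA minus DD (4.7%), CARS1 and CARS2. The comparisons share control arrays. The transfected gene gave no check of the labels. PEA15 had signals of 10.25 ± 0.17 (SD, n = 3) in untreated EV, 9.93 ± 0.11 (SD, n = 3) in AA and 10.76 ± 1.33 (SD, n = 3) in DD cells. Under cisplatin the signals were 11.18 ± 0.30 in EV, 10.21 ± 0.22 in AA and 10.96 ± 0.59 in DD cells (SD, n = 3 each). All treated AA arrays lay below all treated EV arrays (-0.97, limma adjusted p = 0.367). Which part of the transcript the probe set reads is not stated in the sources used here. Directions between transfections therefore rest on the labels alone.

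NARS2 and CARS2 had the lowest adjusted p-values of the members in these comparisons. Under cisplatin CARS2 had signals of 9.21, 8.94 and 8.79 in arrays labelled EV, of 8.51, 8.33 and 8.80 in AA arrays and of 9.33, 9.52 and 9.03 in DD arrays. All AA arrays lay below all DD arrays, with a difference of -0.75 (95% CI -1.09 to -0.40, limma adjusted p = 0.52), and the response differed by -0.86 (SE 0.23, adjusted p = 0.985). Without replicate 3 of treated DD cells the difference between treated AA and DD arrays was -0.88 and passed (limma adjusted p = 0.0477), as did 58 probe sets in all. For the response difference 0 members passed whichever array was left out. NARS2 had treated signals of 6.46, 7.13 and 7.18 in EV, of 7.29, 7.59 and 7.18 in AA and of 7.47, 7.91 and 7.75 in DD arrays. DD lay above EV by 0.79 (95% CI 0.40 to 1.17, limma adjusted p = 0.277) without overlap, and its fall after cisplatin was smaller by 0.98 (SE 0.26, adjusted p = 0.485). The 3 treated EV arrays of NARS2 lay below the background mark, and no other array of NARS2 did.

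**Figure D5:**
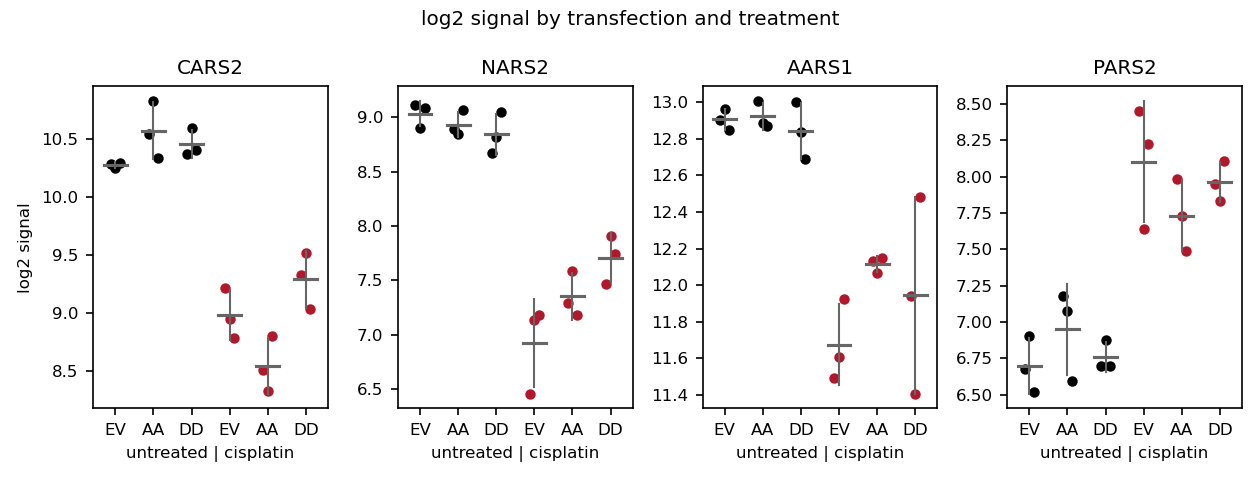
Log2 signal of CARS2, NARS2, AARS1 and PARS2 (1 panel each, y axes differ and do not start at 0) in every array, with 3 points per group, the group mean as a horizontal line and its SD as a vertical line, for untreated (black) and cisplatin-treated cells (red) of the EV, AA and DD transfections. The treatments do not overlap in any panel, and treated CARS2 signals are 8.33 to 8.80 in SKOV-3-AA against 9.03 to 9.52 in SKOV-3-DD cells.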

How the data were processed

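RNA of SKOV-3 cells was measured on Clariom S arrays, and the authors deposited log2 signals for all 18 arrays, summarised per probe set by RMA in Transcriptome Analysis Console. They were used without further normalization, and 0 columns of other samples were found. The base of the logarithm was taken from RMA and the values. No build is named for the annotation of the probes, and genes were matched to RefSeq GRCh38.p14 by Entrez identifier. After leaving out 2903 control features, 21448 probe sets were tested, 17709 with a symbol. Comparisons used limma 3.58.1 (R 4.3.3) with 1 mean per group, 12 residual degrees of freedom and Benjamini-Hochberg adjustment over all probe sets. The fit was tested on simulated data.

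The members, the gene lists and the tests were chosen with earlier results of these data known. Any member may be named, with full values for the 8 highest and 8 lowest averaged cisplatin changes, which AARS1 was added to after its values were seen, and of each other list at most the 4 highest and 2 lowest. ATF4, HSD17B10 and ELAC2 were also named after their values were seen. The standard errors of the members' averaged changes lay between 0.0576 and 0.173. Alternatives were median centring, quantile normalization, filters on low values, trend and robust options, array weights, blocking on the replicate number, fitting the compared groups alone, the thresholds of the methods, GARS1 and KARS1 left out, and leaving out arrays. Figures were drawn with matplotlib in Python.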

Additional observations from a re-analysis of the deposited data

How the results depend on the processing

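Of 801 values of the members' averaged cisplatin changes under up to 26 other settings, 787 kept their direction and their side of the threshold. Median centring, which moved the overall median change from 0.10 to 0.30 and the share of rises among all calls from 55.9% to 70.6%, turned SARS1 to 0.036, TARS1 to 0.064, AARS2 to 0.014 and HARS2 to 0.047, and quantile normalization turned HARS2 to 0.15, none of them called. A filter at the median level lowered the share of rises to 44.7%. TARS1 passed as a fall under 5 settings, RARS1 as a rise with median centring (0.29) and HARS2 as a fall without replicate 1 of treated DD cells. With median centring the rises and falls were 8 and 14 in EV, 7 and 12 in AA and 7 and 14 in DD cells. Rises in AA cells and of mitochondrial members were 3 and 2 with the filter at the median. That filter leaves out members of low mean signal, so these counts cover fewer members. With only the groups compared DD cells had 3 rises and 12 falls. At the thresholds of the methods 1 member was higher and 7 lower in EV, 0 and 8 in AA and 2 and 6 in DD cells, and on average 0 cytosolic members were higher and 2 lower, and 1 mitochondrial member was higher and 6 lower. With each array left out in turn, rises and falls ranged from 2 to 4 and 16 to 18 in EV, 3 to 5 and 15 to 19 in AA and 3 to 5 and 15 to 19 in DD cells, falls of the averaged response from 10 to 11 among cytosolic and from 9 to 10 among mitochondrial members, and calls for AA against DD cells under cisplatin from 0 to 1. Same-numbered arrays did not deviate together (correlations -0.05 to 0.18, median 0.02, 45 pairs), so the numbers were not taken as pairs. With a replicate block the rises and falls were 3 and 18 in EV, 5 and 18 in AA and 5 and 20 in DD cells, and 0 members were called between transfections. A lowest-mean probe set per gene was not run, since each member has 1. The causes were not tested. Signal over background limits the mitochondrial members most.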

Other observations

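Of 9 measured genes for tRNA maturation, selenocysteine or editing, 5 rose and 3 fell (median 0.28), while over all probe sets 36.5% rose and 28.7% fell (median 0.10). In the mitochondrial RNase P, which cuts the 5′ end of mitochondrial tRNAs, the catalytic subunit PRORP had signals of 10.56 to 11.11 untreated and of 7.47 to 8.79 treated, a change of -2.69 (SE 0.17, limma adjusted p = 1.17e-10). Its partner TRMT10C, a tRNA methyltransferase, rose by 1.09, from 8.86 to 9.36 to 9.40 to 10.47, and the third subunit, HSD17B10, rose by 0.28. The subunits of 1 complex thus differed in direction without overlap of the arrays in PRORP and TRMT10C. Of the enzymes that cut the 3′ end of tRNAs, ELAC1, which is not the mitochondrial one, rose by 1.17 and ELAC2 fell (-0.29). DTD1, which removes D-amino acids from tRNA, fell by 1.57.

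Human mitochondria have no aminoacyl-tRNA synthetase of their own for glutamine, and GatCAB converts glutamate on the tRNA instead. Of its subunits, GATB fell by 0.97 and QRSL1 by 0.89, while GATC lay at -0.14 (adjusted p = 0.0944). MTFMT, which formylates the initiator methionine on its tRNA, rose by 0.91 (SE 0.07, limma adjusted p = 1.34e-09), with signals of 10.38 to 10.76 untreated and of 11.36 to 11.63 treated.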
